A study of Lathyrus oleraceus with 9 samples.

Results

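Described here are 4 of the 5246 probes on the pea array. They stand for genes in common use as references for transcript measurements: actin-1 (PSOLI04743), actin-7 (PSOLI04417), actin-3 (PSOLI04421) and a beta tubulin (PSOLI00375). They were chosen by their log2 ratios, since they come from the list of housekeeping genes that the study drew up for probes whose ratios changed with ageing on these same arrays, and so their aged over non-aged values are given here as a description and with no test. Garden pea seeds (cultivar Alaska Early) with a moisture content of 12% after equilibration at 60% relative humidity were the non-aged control, and the same kind of seeds were held at 50 °C in sealed bottles for 8, 12 or 15 d. Each ageing time had 3 arrays from 3 biological replicates of 20 pooled seeds each, which made 9 arrays, and every array carried RNA of aged and of non-aged seeds in different dyes, with the dyes exchanged on replicate 2. Each probe thus has one log2 ratio per array, aged over non-aged, where −1 means that the transcript had fallen 2-fold relative to the typical probe.

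Actin is the protein of the microfilaments, and alpha and beta tubulin form the dimers that build microtubules. Plants carry several genes of each family, which differ in the organs and stages in which they are active. In Arabidopsis, ACT7 is an actin of vegetative tissue, whereas ACT1 and ACT3 belong to the reproductive actins; the pea names are those given to the probes by the study and need not follow these classes. A dry seed holds transcripts stored during maturation, and a reference gene is of use there only where its transcript is as abundant in the control as in the treated seeds relative to the RNA that enters the assay. On the scale used here a log2 ratio of 0 means that a transcript kept pace with the typical probe. A gene steady relative to the input RNA lies at 0 only where the typical probe was steady too, which was not tested. All amounts given below are therefore relative to the typical probe. The ratios were centred on the typical probe by the authors' loess step, so that a loss of mRNA shared by all probes cannot be seen, and in whole seeds fewer cells of a type and less RNA per cell cannot be told apart. The paper reports that RNA was partly degraded from the onset of ageing, and it put only RNA that it judged satisfactory on the arrays. Whether degradation differed between transcripts was not tested. Ratios hold no levels, so that neither the abundance of one gene against another nor the tissue label could be examined with them.

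PCR primers were designed in the study for genes named actin 1 and tubulin-beta-3, names that 2 of the 4 probes also carry. They are shown, 5′ to 3′ and with the 5 bases at the 3′ end in capitals, because they define what would be measured if these genes served as PCR references.
Act forward: caacccaaaggccaacagAGAAA
Act reverse: ccacttgcatagagggagaGGACA
Tub forward: ggccgcttcgttccCAGAG
Tub reverse: gcccagttattcccagcACCAC
The actin primers were 23 and 24 bases long with 47.8% and 54.2% G and C, and the tubulin primers were 19 and 22 bases long with 68.4% and 59.1%. Where they lie relative to the array probes was not analysed here. In the PCR work itself the study added human RNA to the pea RNA and used a human transcript as the reference, and those PCR values were not used here. The beta tubulin probe is named beta-3 tubulin in the study's main tables and beta-1 tubulin in its housekeeping list, and actin-7 also carries the name actin-2. None of the probe identifiers is in the RefSeq gene table of pea (assembly CAAS_Psat_ZW6_1.0), in which one actin gene has the synonyms Actin-1 and Actin-2 and another PEAc3, and 3 beta tubulin genes are named TUBB1, TUBB2 and TUBB3.

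Ageing was accompanied by lower ratios of actin-1, actin-7 and beta tubulin and by a higher ratio of actin-3, each with the same sign on all 9 arrays. Actin-7 lay furthest from 0, at a mean of −1.85 over the 9 arrays, followed by actin-1 at −1.16, actin-3 at 1.15 and beta tubulin at −1.03. No array placed any of the 4 within 0.7 of 0, the closest value being −0.72 for beta tubulin at 8 d. By the same measure, 2917 of the 5246 probes (55.6%) remained within 0.5 of 0 on every array.

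Actin-7 gave log2 ratios of −1.82, −1.85 and −1.83 after 8 d, of −1.68, −1.60 and −1.54 after 12 d and of −2.15, −2.11 and −2.08 after 15 d. All 15 d values were the lowest and all 12 d values the highest, and no 2 times overlapped. The means were −1.83 ± 0.015 (SD, n = 3), −1.61 ± 0.07 and −2.11 ± 0.035, which left 28.1%, 32.8% and 23.1% of the non-aged amount, or a 4.33-fold decline at 15 d. Only 31 probes of the array had a lower mean at 15 d.

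Actin-1 gave −1.09, −1.04 and −0.90 at 8 d, −1.30, −1.08 and −1.10 at 12 d and −1.31, −1.39 and −1.26 at 15 d. The 8 d and 15 d values did not overlap, whereas the 12 d values overlapped with both. The means were −1.01 ± 0.098 (SD, n = 3), −1.16 ± 0.12 and −1.32 ± 0.066, corresponding to 49.7%, 44.8% and 40.1% of the non-aged amount. At 8 d the mean lay just past −1, and it was −0.97 without replicate 1 and −0.995 without replicate 2, both short of −1.

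Beta tubulin gave −0.72, −0.79 and −0.88 at 8 d, −1.02, −1.04 and −1.09 at 12 d and −1.43, −1.18 and −1.11 at 15 d. Every 12 d value lay below every 8 d value and every 15 d value below every 12 d value, with replicate 1 at 15 d standing lowest. The means were −0.80 ± 0.08 (SD, n = 3), −1.05 ± 0.036 and −1.24 ± 0.17, so that 57.6%, 48.3% and 42.3% of the non-aged amount remained.

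Actin-3 gave 1.23, 1.15 and 1.19 at 8 d, 1.13, 1.03 and 1.07 at 12 d and 1.22, 1.16 and 1.14 at 15 d. The 12 d values lay below those of both other times, and the 8 d and 15 d values overlapped. The means were 1.19 ± 0.04 (SD, n = 3), 1.08 ± 0.05 and 1.17 ± 0.042, or 2.28-, 2.11- and 2.26-fold the non-aged amount. At 15 d, 141 probes of the array had a higher mean.

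**Figure D1:**
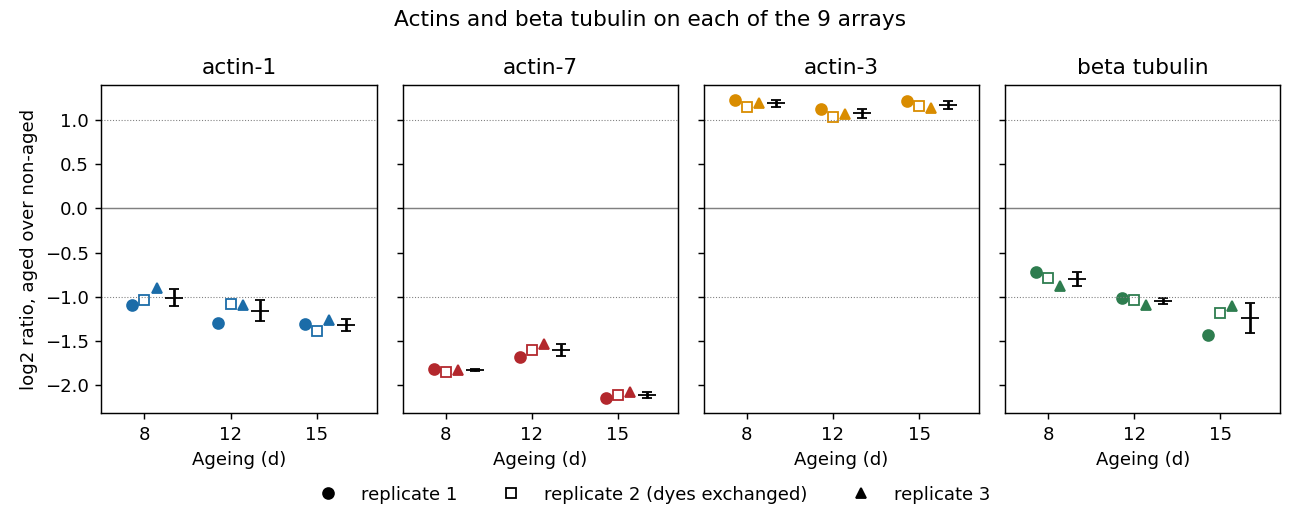
Log2 ratio, aged against non-aged, on each array (vertical axis) by days of ageing (horizontal axis) for each of the 4 probes; circles, open squares and triangles are replicates 1, 2 (dyes exchanged) and 3, the bars beside them are the mean ± SD of the 3 arrays, and dotted lines mark ratios of −1 and 1. Actin-3 lies between 1.03 and 1.23 throughout, actin-7 between −2.15 and −1.54, and the means of the other two are lower at 15 d than at 8 d.

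The study's lists hold 717 probes that it called as changed, of which 696 reached a mean log2 ratio of 1 in size, of either sign, at one or more times in the deposited ratios, as did 30 probes that are not listed. Over all probes the values nearest to this threshold were 1.00 and 0.9967. The largest mean of the 4 was 1.32 in size for actin-1, 2.11 for actin-7, 1.19 for actin-3 and 1.24 for beta tubulin. A probe was called when its mean reached this size and its adjusted p in limma, a linear model with a spread moderated over all probes, was under 0.05. At 8 d, 2 of the 4 were called down (actin-1 and actin-7) and actin-3 up, where 4.48% of all probes were called down and 2.52% up. At 12 d, 3 were called down and 1 up, beside 4.77% and 3.13% of all probes, and the same held at 15 d beside 7.09% and 5.64%. Actin-1 and actin-7 were called down at all 3 times, as were 3.91% of all probes, and actin-3 up at all 3 times (1.89%). All 4 were called at one time or more, beside 13.8% of all probes. Since the calls chose the probes, nothing is read from these counts.

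In terms of rank, 99.5% of all probes had a mean smaller in size than actin-7 at 8 d, 98.6% at 12 d and 99.4% at 15 d. For actin-1 the shares were 93.2%, 95.1% and 94.7%, for beta tubulin 87.4%, 93.1% and 93.5%, and for actin-3 96.4%, 93.7% and 92.1%. The share fell from each time to the next for actin-3 alone, while its own ratio moved by 0.11 at most. Over all probes the median size of the mean was 0.253, 0.263 and 0.3 at these times.

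**Figure D2:**
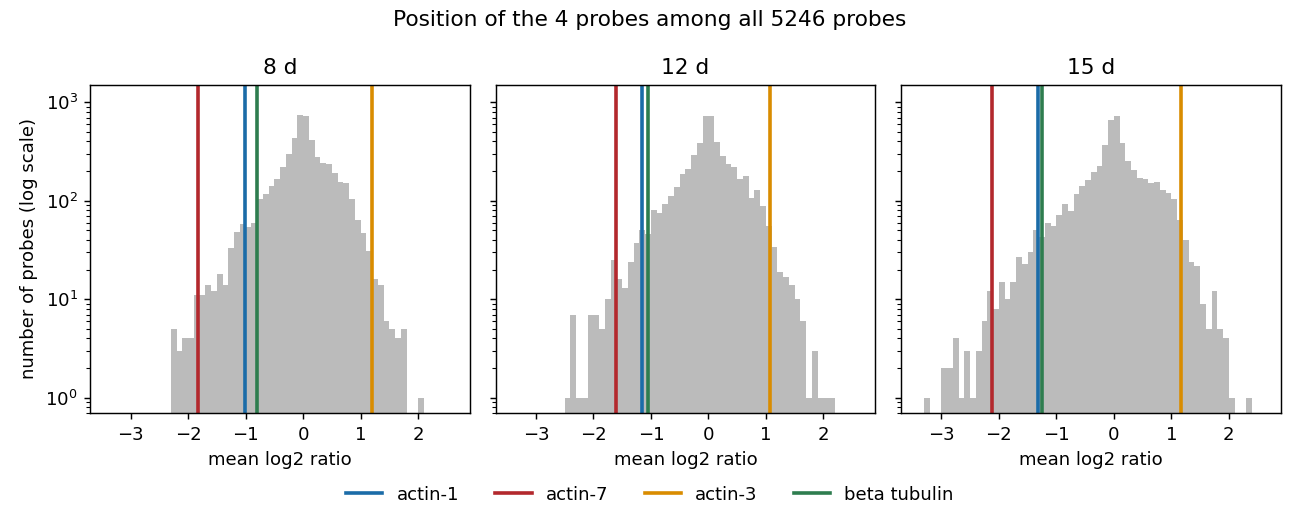
Number of probes (vertical axis, log scale) by mean log2 ratio of 3 arrays (horizontal axis, bins of 0.1) at 8, 12 and 15 d, with vertical lines at the means of the 4 probes. All 4 lie on the flanks of a distribution that peaks at 0, actin-7 at −2.11 on the far left at 15 d and actin-3 at 1.17 on the right.

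Spread between replicates and drift with time did not go together among the 4. Actin-3 and actin-7 were the tightest, with residual SDs of 0.0442 and 0.0462 around their means at each time, and only 10.8% and 12.7% of all probes were tighter. Actin-1 and beta tubulin had residual SDs of 0.098 and 0.11, above that of 77.0% and 85.4% of probes, against a median of 0.0739. The range of the 3 means was 0.51 for actin-7, wider than for 96.1% of probes, 0.44 for beta tubulin (93.8%) and 0.31 for actin-1 (82.3%). For actin-3 it was 0.11, with 30.3% of probes narrower, beside a median range of 0.163. In the deposited ratios actin-3 therefore kept nearly the same value from 8 d to 15 d, but at more than 2.1 times the non-aged amount. When all arrays were brought to the same overall spread, it differed by −0.20 between 15 d and 8 d (adjusted p = 0.0144, limma).

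The ageing times were next compared with each other, which asks whether the ratio of each transcript drifted further once ageing had begun. The 3 actins had reached the threshold of the lists at every time, so that a difference between times did not decide their choice, although it rests on the same arrays. Beta tubulin had reached it only at 12 d and 15 d, so that a distance of these times from 8 d was favoured by its choice, and its differences from 8 d are given with no test. Whether the 3 times shared their non-aged RNA is not stated. Between 8 d and 15 d actin-1 fell by 0.31 on the log2 scale (SE 0.069, limma with Benjamini-Hochberg adjustment over all probes, two-sided, adjusted p = 0.0024) and actin-7 by 0.28 (SE 0.053, adjusted p = 0.0007, limma). These were 2 of 3 actins, while 18.2% of all probes were lower and 19.8% higher at 15 d than at 8 d. The mean of beta tubulin was −0.80 at 8 d and −1.24 at 15 d, a difference of −0.44 (SE 0.074). For these 3 probes the arrays of 8 d and 15 d did not overlap, which held in the same direction for 22.1% of all probes. Actin-3 differed by −0.017 (SE 0.053, adjusted p = 0.83, limma), and its arrays overlapped.

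The deposited ratios differed in overall spread between the times. Their median absolute deviation was 0.385 on each 8 d array, 0.4 on each 12 d array and 0.445 to 0.46 on the 15 d arrays, although the study's methods describe a scaling of the arrays to a similar distribution. When all arrays were brought to the same spread, actin-1 no longer passed (−0.13, adjusted p = 0.188, limma) and actin-7 differed by 0.023 (adjusted p = 0.8, limma). The difference of beta tubulin was then −0.29. Actin-3 then passed in the downward direction at −0.20 (adjusted p = 0.0144, limma). A least-squares line of the 15 d on the 8 d means over all probes had a slope of 1.17. On this line actin-7 would be at −2.15 at 15 d, 0.036 from its value, whereas beta tubulin lay 0.31 below its line value of −0.93, actin-1 0.14 below −1.18 and actin-3 0.22 below 1.39.

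From 8 d to 12 d actin-7 rose towards 0 by 0.23 (SE 0.053, adjusted p = 0.0084, limma). Of all probes, 9.68% were higher at 12 d than at 8 d, whether towards 0 or not, and 8.84% were lower. Beta tubulin differed by −0.25 (SE 0.074), again with no test. The arrays did not overlap for either, where 16.7% of all probes were higher and 17.0% lower without overlap. The call of actin-7 was lost without replicate 2 (adjusted p = 0.0829, limma) or replicate 3 (adjusted p = 0.0948, limma). Actin-1 differed by −0.15 (adjusted p = 0.15, limma), with overlap, and actin-3 by −0.11 (adjusted p = 0.15, limma), without overlap. With equal spread of the arrays actin-3 passed at −0.16 (adjusted p = 0.0451, limma).

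From 12 d to 15 d actin-7 fell by 0.51 (SE 0.053, adjusted p = 1.6e-05, limma), the widest step of any of the 4, in a contrast where 12.1% of all probes were lower. Its fall was 0.28 with equal spread (adjusted p = 0.00357, limma). The other 3 did not pass. Beta tubulin differed by −0.19 (adjusted p = 0.075, limma) and actin-1 by −0.16 (adjusted p = 0.11, limma). Actin-3 differed by 0.097 (adjusted p = 0.21, limma), a value that became −0.033 with equal spread. The difference of beta tubulin was −0.08 without replicate 1 (adjusted p = 0.491, limma) and −0.28 without replicate 3 (adjusted p = 0.0467, limma). Between 12 d and 15 d the arrays did not overlap for actin-7 and beta tubulin, which were lower (18.0% of all probes), nor for actin-3, which was higher (19.1%).

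The ratios of the 4 on replicate 2, where the dyes were exchanged, lay close to those of the other replicates. Since the same replicate was exchanged at each time, dye and replicate cannot be told apart here. Replicate 2 differed from the others by −0.01 for actin-1, −0.003 for actin-7, −0.05 for actin-3 and 0.038 for beta tubulin (adjusted p from 0.988 to 0.994, limma). Over all probes 0 passed the adjusted threshold in limma and 264 (5.03%) had an unadjusted p under 0.05.

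The 4 probes were also set against each other on the same array, a comparison in which an offset shared by all probes of the array cancels. The authors' print-tip loess correction can differ between probes, and that part does not cancel. Actin-1 and beta tubulin were the closest of the 6 pairs. Actin-1 minus beta tubulin was −0.37, −0.25 and −0.02 at 8 d, −0.28, −0.04 and −0.01 at 12 d and 0.12, −0.21 and −0.15 at 15 d. The mean was −0.13 ± 0.16 (SD over 9 arrays), 1.1-fold, and the sign was negative on all arrays but one. Their proportion to each other thus stayed near that of non-aged seeds, while each was at 42.3% or less of its non-aged amount at 15 d.

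Actin-7 and actin-3 were the pair furthest apart. Actin-7 minus actin-3 averaged −3.0 ± 0.27 (SD over 9 arrays), which is a 7.99-fold shift of one actin transcript against the other, and ranged from −3.37 to −2.61. Actin-1 minus actin-3 averaged −2.31 ± 0.18, and actin-3 minus beta tubulin 2.18 ± 0.22. Actin-1 minus actin-7 went from 0.82 to 0.45 and then to 0.79 over 8, 12 and 15 d. Actin-7 minus beta tubulin was −1.04, −0.56 and −0.87 at these times. In both of these pairs the 12 d arrays were the ones nearest to 0.

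**Figure D3:**
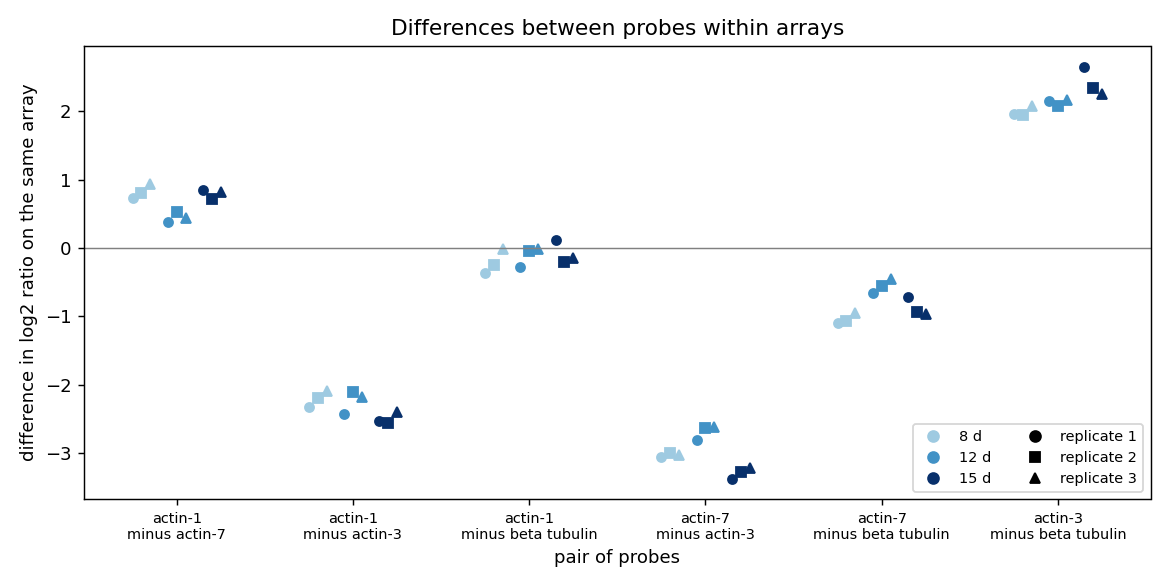
Difference in log2 ratio between probes on the same array (vertical axis) for the 6 pairs of the 4 probes (horizontal axis); shades of blue are ageing times and symbols are replicates. Only the pair of actin-1 and beta tubulin, from −0.37 to 0.12, lies around 0, and every pair with actin-3 is more than 1.9 from 0.

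What each gene would do as a reference was shown by subtracting its value on each array from all other probes and counting those whose mean then reached 1 in size. As deposited, 296 probes were up and 372 down at 15 d. Relative to actin-7 the counts were 4944 up (94.3%) and 1 down, relative to actin-1 4062 up (77.4%) and 17 down, and relative to beta tubulin 3894 up (74.2%) and 20 down. With actin-3 the picture was the opposite, with 1 up and 3522 down (67.1%). The error of the reference is shared by every probe of an array, so that these counts carry no test.

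Which probes were past the threshold follows from the size of the reference's own ratio, by which it was chosen, and is given as a description of what its use would do. At 15 d all 296 probes that were up as deposited stayed up relative to actin-1, but of the 371 others that were down only 17 stayed down. Relative to actin-7, 1 of 371 stayed down and 70 were up. Relative to beta tubulin, 20 of 371 stayed down and 3598 probes were newly up. Relative to actin-3 all 372 down probes stayed down, whereas 1 of 295 up probes stayed up and 3150 were newly down.

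The shift was already present at the shortest ageing time. Counts rose with time for actin-1 and beta tubulin, the 2 probes that share names with the PCR primers. For beta tubulin a rise from 8 d was favoured by its choice. The counts at 8 d and 12 d were not computed at equal spread of the arrays, where the fall of actin-1 from 8 d to 15 d no longer passed. Relative to actin-1, 2813 probes were up at 8 d (53.6%), 3687 at 12 d (70.3%) and 4062 at 15 d. Relative to beta tubulin, the numbers were 1548 (29.5%), 3133 (59.7%) and 3894. Relative to the mean of the 2, they were 1992 (38.0%), 3456 (65.9%) and 3986 (76.0%), and the median ratio of all other probes was 1.30 at 15 d, against 1.34 relative to actin-1 alone and 1.26 relative to beta tubulin alone. For actin-3 the number of probes that were down was 3665 (69.9%), 3137 (59.8%) and 3522, with no trend over time. Under a log2 threshold of 1.5 the numbers past it at 15 d were 1718 for actin-1, 1493 for beta tubulin, 1179 for actin-3 and 4529 for actin-7.

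Means over several genes depended on whether actin-3 was among them. The mean of all 4 was −0.61, −0.69 and −0.88 at the 3 times, and relative to it 1912 probes (36.5%) were up and 60 down at 15 d. The mean of the 3 without actin-3 was −1.21, −1.27 and −1.56. After the values were seen, actin-1 was also averaged with actin-3, whose ratios had opposite signs. This mean was 0.09, −0.042 and −0.073 and lay between −0.115 and 0.145 on the 9 arrays. Relative to it 377 probes were up and 326 down at 15 d, with all 295 up probes and 326 of 371 down probes of the deposited ratios in the same class. The mean of actin-3 and beta tubulin was 0.20, 0.013 and −0.033. These near-zero means come from one gene that rose and another that fell.

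**Figure D4:**
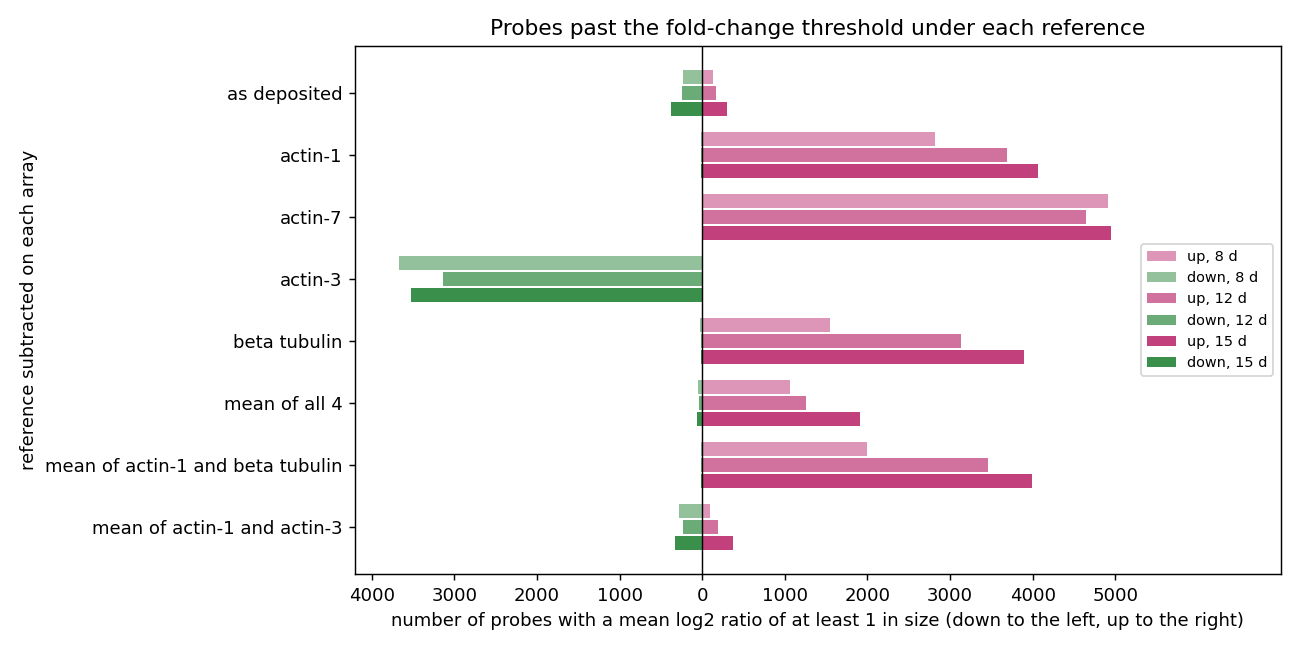
Number of probes whose mean log2 ratio reached 1 in size (horizontal axis, down to the left in green and up to the right in pink) as deposited and after each reference was subtracted on every array (vertical axis); darker bars are later ageing times. Relative to actin-7, 4944 probes are up at 15 d, relative to actin-3, 3522 are down, and the mean of actin-1 and actin-3, chosen after its values were seen, gives 377 up and 326 down.

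Other probes of the same families were on the study's lists, which were drawn up from changes on these arrays, so that their counts are no independent evidence of a direction. There were 17 probes of actins, tubulins and proteins that bind them, the 4 included where they belong, and at 15 d 11 were called down and 6 up, with a median of −1.29 beside 0.0167 over all probes, of which 7.09% were called down and 5.64% up. Of the 13 besides the 4 described, 8 were called down and 5 up at 15 d.

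The actins were divided by name. Of 5 actin probes, 3 were called down and 2 up at 15 d, beside 7.09% and 5.64% of all probes. Actin-66 (PSOLI00918) was at −1.27, −1.36 and −1.74 at 8, 12 and 15 d. It fell by 0.48 from 8 d to 15 d (adjusted p = 4.8e-06, limma), a course like that of actin-1 in direction. This difference was not computed at equal spread of the arrays, where those of actin-1 and actin-7 no longer passed. A second actin-3 probe (PSOLI02621) was at 0.90, 0.84 and 1.08 and reached the threshold of the lists only at 15 d, so that its change from 8 d is given no test. Both actin-3 probes were up at 15 d, and their 12 d values were the lowest of each.

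The beta tubulin probes on the lists went one way. All 5 of them were below 0 at all times and lay between −2.26 and −1.08 at 15 d. Beta tubulin probes that the study did not call as changed carry no name here and cannot be seen. Called down were 3 at 8 d, 4 at 12 d and 5 at 15 d, beside 4.48%, 4.77% and 7.09% of all probes. Calls as changed put them on the lists, so that nothing is read from these counts. The probe described here was the smallest in size of the 5 at 8 d. A beta-1 tubulin (PSOLI01512) was the lowest, at −1.95, −1.98 and −2.26, and its change from 8 d to 15 d was −0.31 (adjusted p = 0.02, limma). Whether that change holds at equal spread of the arrays was not tested. Another beta-1 probe (PSOLI02637) was at −1.48, −1.64 and −1.51 and beta-7 (PSOLI00789) at −1.18, −1.0 and −1.29. Neither passed between 8 d and 15 d (adjusted p = 0.7 and 0.25, limma). Beta-2 (PSOLI04322) was at −0.96, −0.86 and −1.08 and reached the threshold of the lists only at 15 d, so that its change is given no test. The alpha tubulin probe (PSOLI03966), whose product pairs with beta tubulin in the dimer, was at 0.84, 1.03 and 1.30, and since it was past the threshold only from 12 d, its change is given no test. Members of one family share sequence, and whether a probe also bound transcripts of its relatives was not tested.

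Of the 4 probes of actin-binding proteins, 3 were called down and 1 up at 15 d, beside 7.09% and 5.64% of all probes. Actin-depolymerizing factor 2 was at −1.76 (PSOLI05156) and −1.40 (PSOLI02409) at 15 d, and profilin-1 (PSOLI04268), which binds actin monomers, at −1.66. All 3 were lower at 15 d than at 8 d, with differences of −0.53, −0.34 and −0.48 (adjusted p = 1.9e-06, 0.0004 and 5.3e-06, limma). These differences were not computed at equal spread of the arrays. Villin (PSOLI01863), which bundles actin filaments, went the other way, from a mean of 1.12 after 8 d to 1.43 after 15 d. This rise of 0.31 also passed (adjusted p = 0.00016, limma), and it too was not computed at equal spread. Over the same interval 18.2% of all probes passed downward and 19.8% upward. A kinesin-related motor protein (PSOLI02968) and a microtubule-associated protein (PSOLI02454) were at 1.04 and 1.00 at 15 d.

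The housekeeping list of the study, from which the 4 were taken, held 21 probes. It holds probes chosen as changed on these arrays. At 15 d 10 of them were called down and 9 up, beside 7.09% and 5.64% of all probes, and their means ran from −3.21 to 1.23 with a median size of 1.17. The lowest was elongation factor 1-alpha (PSOLI01474), which brings aminoacyl-tRNAs to the ribosome, at −2.09, −2.38 and −3.21 at 8, 12 and 15 d. Another elongation factor 1-alpha probe (PSOLI03999) was at 0.87, 0.73 and 1.06, so that probes with this name differed in sign as the actins did. Ubiquitin probes (PSOLI04506, PSOLI04735 and PSOLI05050) and polyubiquitin (PSOLI02850), which encode the tag of proteins marked for breakdown, lay near 1.1 at 15 d, and the glycolytic phosphoglycerate kinase (PSOLI04847) was at 1.23.

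**Figure D5:**
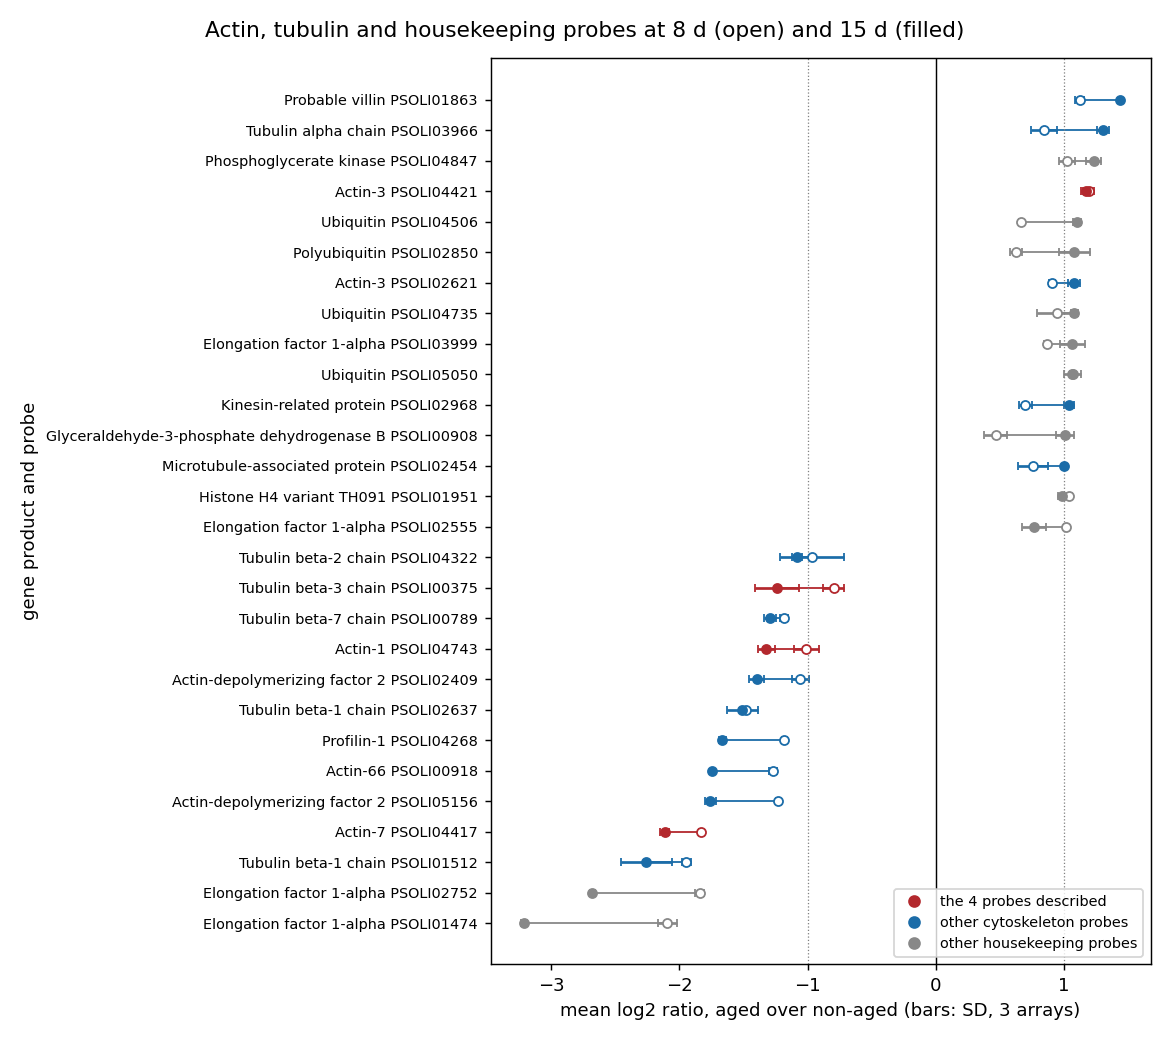
Mean log2 ratio, aged against non-aged (horizontal axis, bars are SD of 3 arrays), at 8 d (open) and 15 d (filled) for each actin, tubulin, cytoskeleton or housekeeping probe of the study's lists (vertical axis); red are the 4 described, blue other cytoskeleton probes, grey other housekeeping probes, and dotted lines mark −1 and 1. Beta tubulins are all on the left and both actin-3 probes on the right, in lists drawn up from changed probes.

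For each of the 4 the 2 named probes with the closest ratios were found by the Euclidean distance of their log2 ratios over the 9 arrays. No unnamed probe was nearer, but names exist for changed probes only, among which ratios this far from 0 mostly lie. The distance includes the size of the ratio that chose each of the 4, and the median distance over all probes follows from that size. The distances are therefore a description and no evidence of a shared course. Actin-7 had the closest neighbour, a Rab GDP dissociation inhibitor (PSOLI00760), which returns Rab GTPases from membranes, at a distance of 0.109 beside a median of 5.63 over all probes. Its means were −1.80, −1.60 and −2.11, and like actin-7 it was highest at 12 d. An expansin-like protein (PSOLI03805) followed at 0.205. Nearest to actin-1 were a hypothetical protein (PSOLI00086, 0.197) and UDP-glucose 4-epimerase (PSOLI00807, 0.207), nearest to actin-3 were hypothetical proteins (PSOLI04028, 0.233, and PSOLI03280, 0.262), and nearest to beta tubulin were peroxiredoxin type 2 (PSOLI04083, 0.312), which reduces peroxides, and an ATP synthase D chain-related protein (PSOLI05185, 0.319).

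At the other end of the array, 2 probes (PSOLI00188 and PSOLI01631) stayed between −0.05 and 0.05 on all 9 arrays. Within 0.1 of 0 on every array there were 56 probes (1.07%), and within 0.2 there were 919 (17.5%). None of these has a name in the study's tables, which hold changed probes only, so that no gene can be put beside the 4 here as a steadier one. A ratio near 0 can also come from a probe with little signal, and signal strength was not analysed here.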

How the data were processed

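Transcripts of aged and non-aged pea seeds were compared on 9 arrays of 2 colours. The deposited log2 ratios had been background-corrected, print-tip loess normalised and scaled between arrays by the authors with limma (version not given in the sources used here). Their spread was equal or nearly so within each ageing time but not between times, so that the scaling may not have spanned all arrays. They hold 5246 probes in steps of 0.01 with no missing value. All arrays run the same way, since those with exchanged dyes correlated with the rest at 0.934 or more, and the direction, aged over non-aged, was taken from the study's tables. The ratios were fitted in limma 3.58.1 (R 4.3.3) with 1 coefficient for each ageing time (6 residual degrees of freedom) and adjusted by Benjamini-Hochberg over all probes. Tables were handled in pandas 2.3.3 and numpy 2.4.6, and the fit was tested on simulated data. The p-values measure the spread between 3 arrays a time, whose number limits the precision. No spot signals, and so no levels or detection calls, were used.

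Named were the 4 probes, the cytoskeleton and housekeeping probes of the study's tables and those with an actin, tubulin, microtubule, kinesin, profilin or villin name, the 2 nearest named probes for each of the 4, and the 2 steadiest probes. The probes and lists were chosen with earlier results of these data known. Alternatives were centring, equal spread, a dye term, a replicate block, a robust prior, only the 6 arrays compared, a log2 threshold of 1.5 and leaving out each replicate.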

Additional observations from a re-analysis of the deposited data

Results flagged for a closer look

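Ratios that differed between ageing times are listed here. Beta tubulin differed by −0.443 between 15 d and 8 d and by −0.253 between 12 d and 8 d, values with no weight as tests, since the probe reached the threshold of the study's lists only at 12 d and 15 d. Actin-1 was lower at 15 d than at 8 d (−0.31, adjusted p = 0.0024, limma). Actin-7 was lower at 15 d than at 8 d (−0.28, adjusted p = 0.000698, limma) and than at 12 d (−0.507, adjusted p = 1.62e-05, limma), and higher at 12 d than at 8 d (0.227, adjusted p = 0.00836, limma). The median absolute deviation of all ratios was 0.385 at 8 d, 0.4 at 12 d and 0.445 to 0.46 at 15 d, and the differences at equal spread of the arrays are given with the alternatives.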

How the results depend on the processing

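The log2 ratios of the 4 probes kept their sign under each alternative tried. Equal spread of the arrays moved actin-1 at 15 d to −1.208, actin-7 to −1.959 at 8 d and −1.936 at 15 d, and actin-3 to 1.271 at 8 d and 1.075 at 15 d. It took the difference between 15 d and 8 d to −0.1293 for actin-1 (adjusted p = 0.188, limma), 0.02291 for actin-7 (adjusted p = 0.8) and −0.1965 for actin-3 (adjusted p = 0.0144), and that of actin-3 to −0.1637 between 12 d and 8 d (adjusted p = 0.0451) and −0.03281 between 15 d and 12 d (adjusted p = 0.759). It also left 196 probes up at 15 d and 614 that differed between 15 d and 12 d, against 296 and 1270.

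Centring, a dye term, a robust prior and a fit of only the 6 arrays compared changed no call of the 12 differences. Among these, the differences of beta tubulin from 8 d carry no weight as tests. Replicate numbers did not pair the arrays, as the deviations of arrays with the same number correlated at −0.0117 to 0.0557. The fit with the replicate block changed no call either (actin-1, 15 d against 8 d, −0.31, adjusted p = 0.00121, limma), and the number of probes that differed went from 1993 to 1981 (15 d against 8 d), from 972 to 957 (12 d against 8 d) and from 1270 to 1244 (15 d against 12 d).

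Leaving out 1 replicate in turn gave 0.195 to 0.27 for actin-7 between 12 d and 8 d, lost without replicate 2 or 3. For beta tubulin it gave −0.275 to −0.23 between 12 d and 8 d, again with no test. Between 15 d and 12 d it gave −0.275 to −0.08, past the threshold without replicate 3 alone. The probes that differed numbered 442 to 484 (12 d against 8 d) and 702 to 758 (15 d against 12 d). At a log2 threshold of 1.5, 1718 probes were past it at 15 d relative to actin-1, 1179 relative to actin-3, 1493 relative to beta tubulin, 4529 relative to actin-7, 823 relative to the mean of all 4 and 1598 relative to the mean of actin-1 and beta tubulin, against 4079, 3523, 3914, 4945, 1972 and 4003 at 1.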
